A study of Mus musculus with 6 samples.

Results

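Signal was followed for 9 genes encoding transcription factors that specify stratified epidermis or drive its differentiation, in keratinocytes captured at the tip of the regrowing epithelium of mouse skin wounds. The 9 genes are Trp63, the grainyhead-like genes Grhl1, Grhl2 and Grhl3, the zinc-finger genes Ovol1 and Ovol2, the AP-2 genes Tfap2a and Tfap2c, and Gata3. Every probe set that the array annotation assigns to these symbols was taken, which gave 9 probe sets, 1 for each gene, of 35556 on the array. They are 9 of the 19938 genes tested.

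Wounds were collected on day 3 from mice of 2 groups. Diabetic mice were put on a diet high in fat and fructose at 8 weeks of age and kept on it for 16 weeks, and normal mice ate a control diet over the same time. Strain, sex and glycaemia were not used here. Tissue was fixed before laser capture, and each sample combined the cells cut from its own sections. Each group had 3 arrays, titled as biological replicates. Nothing in the labels ties each array to its own mouse, so the p-values reflect only how far these samples vary, which may be technical. All values are log2 probe set signals, differences are diabetic minus normal, and n = 3 arrays per group throughout. The base of the logarithm was inferred from the range of values, and every fold change or signal ratio given here depends on it.

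p63, the product of Trp63, is required for epidermis to form and for its basal cells to persist, and it acts upstream of many adhesion and keratin genes. The grainyhead-like proteins switch on genes of epithelial junctions and of the cornified barrier, and Grhl3 is also known for its part in wound closure. Ovol proteins are repressors that hold back mesenchymal genes and help keratinocytes leave the cell cycle. The AP-2 proteins act redundantly in epidermal differentiation, and Gata3 serves both barrier formation and the inner root sheath of the hair follicle, as well as T cells.

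The arrays were dim, which bears on every value that follows. A background limit was set on each array at the 95th percentile of the signals of 1194 odorant and vomeronasal receptor genes, most of which are silent outside sensory tissue, and it lay between 1.98 and 2.12. Grhl3, Ovol2 and Gata3 exceeded it on all 6 arrays, as did 17.4% of all genes. Grhl2 exceeded it on none. The other 5 exceeded it on 1 or 2 arrays, namely Trp63 and Tfap2a on 2 arrays each and Grhl1, Ovol1 and Tfap2c on 1 each. Passing the limit does not by itself show expression, since Gata1, a factor of red blood cell precursors, and Gata4, a factor of heart and gut, also passed it on all 6 arrays. For genes under the limit, a difference in signal can understate a difference in RNA.

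By this limit, markers of the labelled cell type did not stand out from all genes. Of 18 keratinocyte markers Krt15, Krt10 and Sfn (3 genes) exceeded the limit on every array, where 17.4% of all genes did. A further 7 exceeded it on none, where 10261 of all 19938 genes did the same. Among the 7 was the gene of E-cadherin (Cdh1), the protein by which the cells were located. The mean signal of the 18 markers was 2.01, 2.01 and 2.03 on the diabetic arrays against 2.01, 2.19 and 2.02 on normal ones. In pooled captured cells, fewer cells of a type and less RNA per cell cannot be told apart.

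The upstream sequences of the 3 genes above the limit on all arrays are shown because only their signals, of the 9, cleared the limit throughout. Each run is the 250 bases before an annotated start site on GRCm38.p6, written 5′ to 3′ on the gene's strand. RefSeq's span of Gata3 reaches to 9887953 and that of Ovol2 to 144332080, beyond these windows. Both genes lie on the minus strand, so their windows are inside the gene, and transcripts that start further upstream are not covered. The promoter table held 5 of the 9 genes. It was searched on both strands for letters bound by most of the families studied here, but not for letters bound by p63. The letters were AACCGGT for grainyhead-like proteins, CCGTTA for Ovol proteins, GCCNNNGGC for AP-2 proteins, and AGATAA or TGATAA for GATA proteins. Capitals mark every match found in the windows shown.
Gata3, chr2:9878601-9878850, minus strand: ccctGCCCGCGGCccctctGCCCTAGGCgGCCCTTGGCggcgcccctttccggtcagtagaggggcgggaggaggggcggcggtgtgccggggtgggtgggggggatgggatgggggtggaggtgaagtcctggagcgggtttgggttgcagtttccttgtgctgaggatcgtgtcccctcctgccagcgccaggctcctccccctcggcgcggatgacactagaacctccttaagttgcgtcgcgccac
Grhl3, chr4:135573633-135573882, minus strand: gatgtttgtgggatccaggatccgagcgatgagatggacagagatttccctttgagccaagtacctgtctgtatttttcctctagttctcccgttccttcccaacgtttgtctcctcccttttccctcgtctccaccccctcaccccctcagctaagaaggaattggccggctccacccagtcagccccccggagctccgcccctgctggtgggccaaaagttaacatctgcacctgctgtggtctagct
Ovol2, chr2:144331363-144331612, minus strand: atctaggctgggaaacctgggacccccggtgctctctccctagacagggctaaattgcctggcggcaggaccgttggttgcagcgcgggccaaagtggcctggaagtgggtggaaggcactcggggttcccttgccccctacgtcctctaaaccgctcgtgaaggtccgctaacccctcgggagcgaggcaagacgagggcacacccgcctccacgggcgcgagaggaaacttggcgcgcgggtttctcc
The Gata3 window held the AP-2 letters at 3 places that do not overlap, beginning at bases 5, 20 and 30 of the run. Among all 32851 windows of this length in the table, 13.7% held the AP-2 letters at least at 1 place. The grainyhead-like letters were in 0.831% of all windows, the Ovol letters in 2.18%, and the 2 GATA forms in 9.99% and 7.94%. None of these was found in the 3 windows shown, which says only that those letters are not in these 250 bases. The Gata3 window was 70.0% G and C, the Ovol2 window 65.2% and the Grhl3 window 56.0%, against a median of 52.4% over all windows. Letters with a high share of G and C, such as the AP-2 motif, occur more readily in such sequence, and no binding was measured here.

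No member passed the test between diabetic and normal keratinocytes. With limma and Benjamini-Hochberg adjustment over all genes, adjusted p ran from 0.887 for Trp63 to 0.992 for Gata3, and 0 of 19938 genes passed (0%). The unadjusted p was under 0.05 for 1109 genes, or 5.56%, and in a fit to all probe sets for 5.54%. Without variance moderation, too, 0 genes were called. Signal was lower in diabetic samples for 7 of the 9 and higher for Ovol2 and Tfap2c, with a median difference of -0.06. Over all genes the median difference was less than 0.01 in size, and 51.3% of genes were lower in diabetic samples. The median over the 9 was 0.04 without normal replicate 1, so its sign rests on that array.

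**Figure D1:**
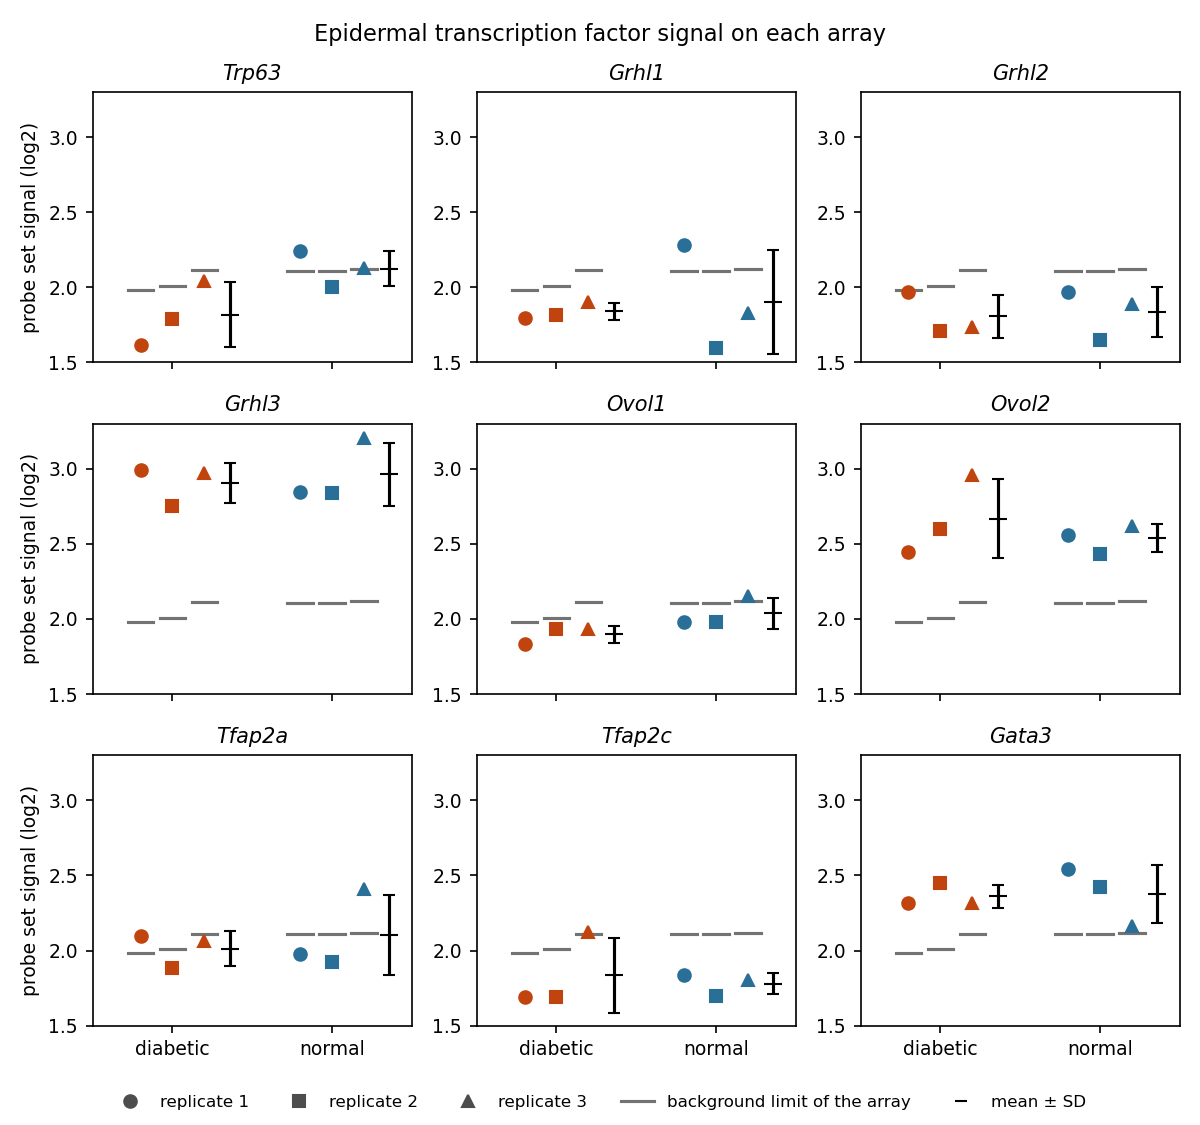
Log2 probe set signal (vertical axis) of each of the 9 genes on each array, with diabetic arrays in orange and normal arrays in blue, a different marker for each replicate, and the mean ± SD of each group in black. Grey bars are the background limit of that array, between 1.98 and 2.12, and only Grhl3, Ovol2 and Gata3 lie above them on every array.

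Trp63, the master regulator of the group, had the lowest unadjusted p. Its signal was 1.62, 1.79 and 2.04 on the diabetic arrays against 2.24, 2.01 and 2.13 on normal ones. Diabetic replicates 1 and 2 lay below every normal array, but diabetic replicate 3 lay above normal replicate 2, so the groups overlapped. The means were 1.82 ± 0.21 (SD, n = 3) and 2.13 ± 0.12, a difference of -0.31 (SE 0.14). This is a 1.24-fold lower signal in diabetic samples, with a 95% confidence interval of the difference from -0.60 to -0.01. The unadjusted p in limma was 0.0425 and the adjusted p 0.887. In this fit to genes, Trp63 alone of the 9 had an unadjusted p under 0.05, where 2.92% of all genes were lower at that level. It ranked 940 of 19938 by p. None of the 9 was higher at that level, against 2.64% of all genes.

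The Trp63 value rests on signals around background. All 3 diabetic arrays were under the limit, and normal replicates 1 and 3 were over it. Leaving out 1 array at a time gave differences between -0.42 and -0.21, all negative. The unadjusted p in limma rose to 0.180 when diabetic replicate 1 was left out and to 0.123 when normal replicate 1 was. Leaving out diabetic replicate 2 or normal replicate 3 gave 0.0947 and 0.0779. Leaving out normal replicate 2 or diabetic replicate 3 gave 0.0343 and 0.0123. It was also above 0.05 with array weights (0.0538), with a replicate block (0.0502) and without variance moderation (0.0954). In the limma fit to all 35556 probe sets, too, the unadjusted p of Trp63 was above 0.05 (0.0630). The confidence interval of its difference in that fit ran from -0.64 to 0.02. The gene yields several proteins from separate promoters, with and without an activating N-terminal part, and its single probe set was read as 1 value, so those forms were not told apart.

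By their pattern over the 6 arrays, the genes most like Trp63 among the 3466 above the limit on all arrays were Crip3 (Pearson r 0.982), Mob2 (0.978) and Adamts3 (0.972). With so few points and so many candidates, some high values can arise from the search alone, and the tenth highest was 0.941. Crip3 stood at 2.32, 2.61 and 2.92 on the diabetic arrays against 3.08, 2.83 and 3.09 on normal ones, with diabetic replicate 1 lowest, as for Trp63. Crip3 differed by -0.38 (SE 0.17), Mob2 by -0.22 (SE 0.14) and Adamts3 by -0.36 (SE 0.20), all with a limma adjusted p of at least 0.887. These genes were picked for their likeness to Trp63 over the arrays of both groups. Differences of the same sign, and a like order of arrays, follow from that choice and lend the Trp63 value no support.

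Genes known to be controlled by p63 were split in direction. Of 23 such genes 19 were measured. In diabetic samples 11 were higher and 8 lower. The median difference was 0.05 and 0 at an unadjusted p under 0.05. The membrane protein gene Perp, a p63 target needed for desmosomes, was at 1.88, 1.70 and 1.86 on the diabetic arrays against 1.96, 2.07 and 2.16 on normal ones. Its groups did not overlap, it differed by -0.25 (SE 0.12), and it exceeded the background limit on 1 array. Desmoplakin (Dsp), which anchors desmosomes to keratin filaments, differed by -0.30 (SE 0.14). The homeobox gene Dlx3 differed by 0.36 (SE 0.18) and the basal keratin gene Krt14 by 0.23 (SE 0.15). For all 4 genes the limma adjusted p was at least 0.893.

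The 3 grainyhead-like genes differed little between groups. Grhl3, the member of the family tied to barrier formation and wound closure, was at 2.99, 2.75 and 2.97 on the diabetic arrays against 2.85, 2.84 and 3.20 on normal ones. The groups overlapped, with normal replicate 3 the highest and diabetic replicate 2 the lowest. The difference was -0.06 (SE 0.15, limma adjusted p 0.977), and the 95% confidence interval from -0.39 to 0.27 corresponds to signal ratios of 0.763 to 1.21.

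Grhl1, which controls desmosomal cadherin genes, was at 1.80, 1.82 and 1.91 on the diabetic arrays against 2.28, 1.60 and 1.83 on normal ones. Normal replicates 1 and 2 were the highest and the lowest of all 6, so the diabetic values lay inside the normal range. The SD was 0.06 among diabetic and 0.35 among normal arrays, and the difference was -0.06 (SE 0.16). Without normal replicate 1 it was 0.13. Grhl2, an activator of E-cadherin and claudin genes, was at 1.97, 1.71 and 1.74 on the diabetic arrays against 1.97, 1.65 and 1.89 on normal ones. Its difference was -0.03 (SE 0.13), with every array under the limit.

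Targets of the grainyhead-like proteins were also split. Of 11 measured genes 6 were higher and 5 lower. The median difference was 0.05 and 0 at an unadjusted p under 0.05. The cornified envelope crosslinking enzyme gene Tgm1 differed by 0.21 (SE 0.14) and Cdh1 by -0.16 (SE 0.11). Esrp1, an epithelial splicing factor gene, differed by 0.14 (SE 0.11). The groups did not overlap for Cdh1 or Esrp1, and both genes were under the limit on every array.

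Ovol1 alone of the 9 genes had groups that did not overlap, with diabetic samples lower, where 5.66% of all genes were separated in that direction. None of the 9 was separated with diabetic samples higher, against 5.02% of all genes. Ovol1 represses Myc as keratinocytes stop dividing. It was at 1.83, 1.93 and 1.93 on the diabetic arrays against 1.98, 1.98 and 2.15 on normal ones. Only normal replicate 3 exceeded the limit. The difference was -0.14 (SE 0.11, limma adjusted p 0.915), and it stayed between -0.17 and -0.08 with any 1 array left out. An exact permutation test of 3 arrays against 3 cannot give a two-sided p below 0.1. The values of diabetic replicates 2 and 3 were identical to the last deposited digit, and so were those of normal replicates 1 and 2, so Ovol1 took 4 distinct values on the 6 arrays.

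Ovol2, which restrains the mesenchymal programme in epidermis, had the largest positive difference of the 9 genes. It was at 2.45, 2.60 and 2.96 on the diabetic arrays against 2.56, 2.43 and 2.62 on normal ones. Diabetic replicate 3 was the highest, and the other 2 diabetic arrays lay within the normal range. The means were 2.67 ± 0.26 (SD, n = 3) and 2.54 ± 0.09, a difference of 0.13 (SE 0.15, limma adjusted p 0.937) with a 95% confidence interval from -0.21 to 0.46. Without diabetic replicate 3 the difference was -0.02.

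Genes that Ovol proteins repress gave no call either. Of 9 genes 2 were higher and 7 lower. The median difference was -0.04. On no array did 5 of them exceed the limit, where 10261 of all 19938 genes did the same. The cell growth regulator Myc differed by -0.12 (SE 0.11), the mesenchymal repressor genes Snai2 and Zeb1 by 0.08 (SE 0.12) and -0.09 (SE 0.17), and N-cadherin (Cdh2) by -0.06 (SE 0.12). None had an unadjusted p under 0.05.

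The AP-2 genes each had a single array that stood away from the rest. Tfap2a was at 2.09, 1.88 and 2.06 on the diabetic arrays against 1.98, 1.92 and 2.41 on normal ones, with normal replicate 3 the highest. Its difference of -0.09 (SE 0.15) was 0.06 without that array. Tfap2c was at 1.69, 1.69 and 2.12 on the diabetic arrays against 1.84, 1.70 and 1.80 on normal ones. Its difference of 0.05 (SE 0.14) was -0.09 without diabetic replicate 3, the highest array. The groups overlapped for both genes.

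Gata3 was at 2.31, 2.45 and 2.32 on the diabetic arrays against 2.54, 2.42 and 2.16 on normal ones, so the diabetic values lay within the normal range. Its difference was -0.02 (SE 0.14), the smallest in size of the 9, with a 95% confidence interval from -0.31 to 0.28. Among 8 genes linked to AP-2 proteins or Gata3 in epidermis, 3 were higher and 5 lower. The median difference was less than 0.01 in size. They were led by the cornified envelope precursor gene Ivl at -0.19 (SE 0.13) and by Cebpb, a factor of keratinocyte differentiation, at -0.27 (SE 0.18). Lor, the gene for the envelope protein loricrin, differed by 0.13 (SE 0.12) and Krt1, a suprabasal keratin gene, by 0.01 (SE 0.12).

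Other cells near a wound edge also use some of these factors. T cells express Gata3, and of 11 measured T cell and Langerhans cell markers 0 exceeded the limit on every array, while 7 never did. Of all 19938 genes, 17.4% exceeded it on every array and 10261 never did. Their mean signal was between 1.78 and 1.81 on the diabetic arrays and between 1.77 and 1.84 on the normal arrays. Melanocytes express Tfap2a, and of 8 melanocyte markers 0 were above the limit on all arrays, with mean signals of 1.78 to 1.92 and 1.79 to 1.89. Of 12 hair follicle and sebaceous gland markers Krt25, Krt75 and Tchh were above the limit on all arrays, with mean signals of 1.97 to 2.09 and 1.93 to 2.10. Krt25, a keratin of the inner root sheath, where Gata3 acts, was at 2.32, 2.23 and 2.56 on the diabetic arrays against 3.23, 2.63 and 2.62 on normal ones. Its difference was -0.46 (SE 0.18, limma adjusted p 0.839). The groups did not overlap, as for 5.66% of all genes in that direction. The list was split, with 7 of its 12 genes higher and 5 lower. The lowest p in it belonged to the hair follicle factor gene Foxn1, which was higher by 0.51 (SE 0.13, limma adjusted p 0.780) without overlap between groups. Foxn1 exceeded the limit on 1 array only, a diabetic one. Among other keratin genes of the list, Krt27 differed by 0.23 (SE 0.20) and Krt71 by -0.23 (SE 0.13). Skeletal muscle, which underlies mouse skin, gave the only marker list here whose mean signal separated the groups, at 2.43 to 2.58 on the diabetic arrays and 2.28 to 2.39 on the normal arrays. Of its 12 markers 11 were higher in diabetic samples, where 51.3% of all genes were lower. In limma 2 of the 11 had an unadjusted p under 0.05, against 2.64% of all genes higher at that level. These were Myh2, above the limit on 1 array, and Myot, above it on none. Acta1, Mylpf, Tnni2, Tnnc2, Ckm and Mb exceeded the limit on every array, as did 17.4% of all genes. Tnnc2 was the 1 marker that was lower in diabetic samples. Mean signals were 2.22 to 2.25 and 2.16 to 2.23 for 10 fibroblast markers, 1.53 to 1.57 and 1.56 to 1.81 for 12 macrophage and neutrophil markers, and 1.85 to 1.89 and 1.85 to 1.92 for 7 endothelial markers. The part of these cells in the values of the 9 genes was not tested.

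**Figure D2:**
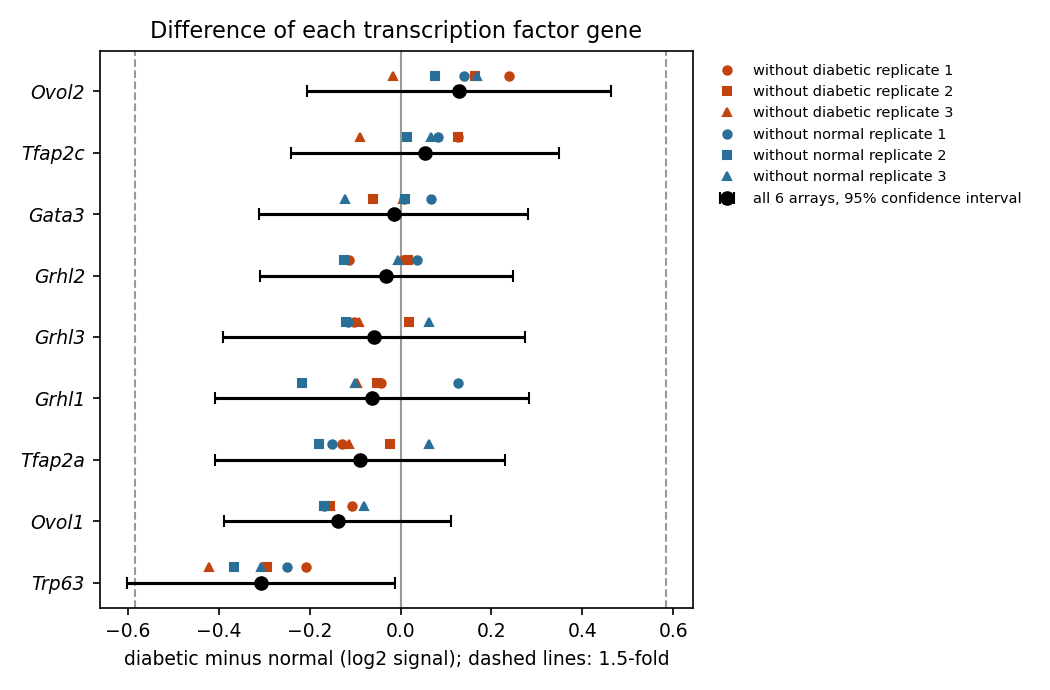
Difference in log2 signal, diabetic minus normal (horizontal axis), for the 9 genes ordered by its size, with the value from all 6 arrays and its 95% confidence interval in black and the value with each array left out as coloured markers. Of the 9, Trp63 and Ovol1 were negative with every array left out, and the dashed lines mark a 1.5-fold change.

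The arrays bounded how far signal could have differed. The 95% confidence interval lay within 2-fold in either direction for all 9 genes and within 1.5-fold for 8, Trp63 being the exception. Of all 19938 genes, 19855 had an interval within 2-fold and 18121 within 1.5-fold, so these counts did not set the 9 genes apart. The intervals of the 9 genes concern array signal alone and set no bound on RNA. This holds above all for the 6 genes not above the limit on all arrays. The sign of the difference was the same with any 1 array left out only for Trp63 and Ovol1 and reversed at least once for the other 7.

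The mean signal of the 9 genes overlapped between groups. It was 2.08, 2.07 and 2.23 on the diabetic arrays against 2.25, 2.06 and 2.24 on normal ones, with replicate 2 lowest in both groups. Normal replicates 1 and 3 each held the highest value of 3 of the 9 genes, diabetic replicate 3 that of 2, and diabetic replicate 1 that of 1. The mean signal of the 19 p63 targets was 1.99, 2.14 and 2.04 on the diabetic arrays against 2.02, 2.13 and 2.01 on normal ones, with replicate 2 highest in both groups.

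Relatives of the 9 factors that are not epidermal regulators, and other regulators of epidermis, also gave no call. Of 13 measured relatives 9 were higher and 4 lower. The median difference was 0.11 and 0 at an unadjusted p under 0.05. Gata1 differed by -0.25 (SE 0.13) without overlap between groups, and Gata2, a factor of blood and vessel cells, by 0.32 (SE 0.18). Ubp1, a broadly expressed relative of the grainyhead-like genes, differed by 0.16 (SE 0.12), and Ovol3 by 0.17 (SE 0.13). Of 31 measured regulators of epidermis or its appendages 12 were higher and 19 lower. The median difference was -0.03, and 11 were above the limit on all arrays. Besides Dlx3 they were led by Lhx2 (0.25, SE 0.12) and Sox9 (0.23, SE 0.16), both factors of hair follicle progenitors, and by the cell division factor gene Foxm1 (-0.27, SE 0.15), all with a limma adjusted p of at least 0.893.

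**Figure D3:**
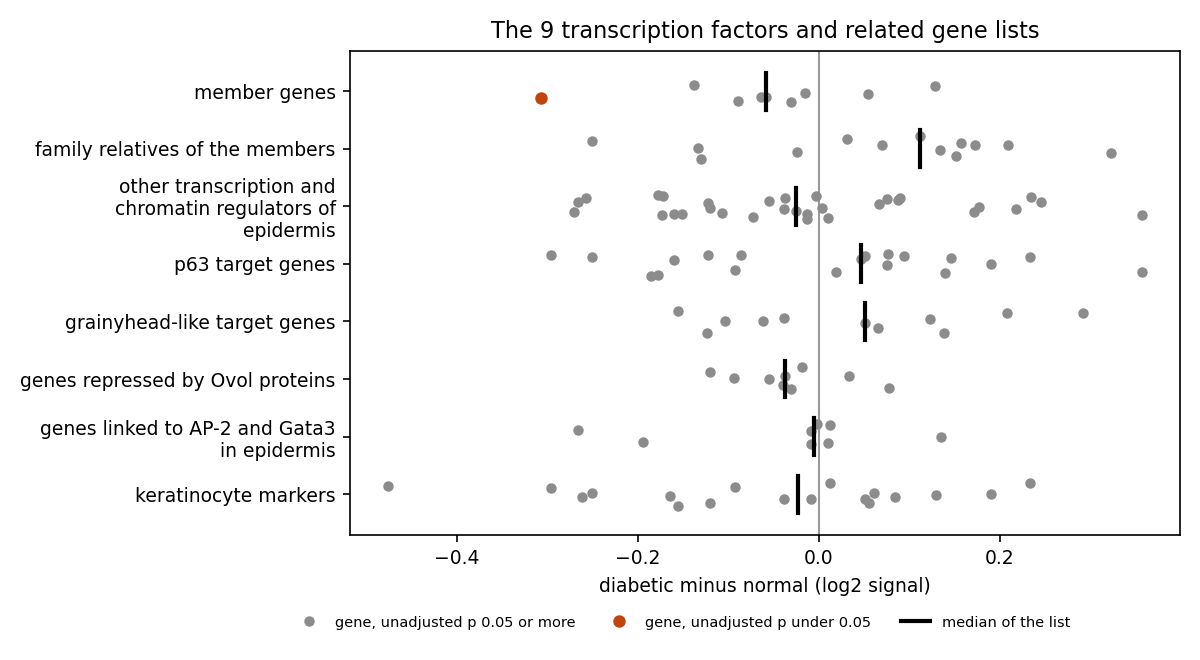
Difference in log2 signal, diabetic minus normal (horizontal axis), of each measured gene in the 9 transcription factors and 7 related lists (rows), with the median of each list as a black bar. Trp63, at -0.31, is the only point in these rows with an unadjusted p under 0.05, and vertical scatter within a row has no meaning.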

How the data were processed

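The deposited table holds log2 signals as the authors made them, with 1 value per array for each probe set. The submitters' processing notes name Partek with no version. How background was corrected and how arrays were normalized and summarized is not stated in the labels. The base of the logarithm was inferred from the range of values. No further scaling was applied, and array medians over all genes lay between 1.79 and 1.83. Columns of samples from other series numbered 0.

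Of 35556 probe sets, 21789 carried a single gene symbol, 1621 several and 12146 were not in the annotation used. A RefSeq table of GRCm38.p6 supplied current symbols, matched by gene ID, for 21698 of the single-symbol probe sets. No probe coordinates are printed, since the build behind the annotation is not given. For the 999 genes with several probe sets the one with the highest mean stood for the gene.

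The comparison used limma 3.58.1 under R 4.3.3, with group as its single term and eBayes variances that follow an intensity trend. The fit was checked on simulated data. Moderated standard errors are given as SE, and a confidence interval is 95%. A fit to all 35556 probe sets called 0 at an adjusted p under 0.05 and 1971 (5.54%) at an unadjusted p under 0.05.

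The 9 genes and the gene lists were chosen with earlier results of these data known. Named genes were the 9, the up to 4 genes of each related list with the lowest p, and the 3 genes most like Trp63. The grainyhead-like target with the lowest p is not reported here. Marker genes of other cells, Gata4 and single markers at or above the limit were named after their values were seen. Alternatives changed the scaling, the variance model, the weight of each array, the filter on dim genes, the choice among probe sets and the replicate block, and left out each array in turn.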

Additional observations from a re-analysis of the deposited data

How the results depend on the processing

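The number of arrays and their dim signal limit these values. No member passed an adjusted p under 0.05 in any alternative run, with limma adjusted p between 0.685 and 0.993 for Trp63 and between 0.861 and 0.993 for Ovol1, which kept their sign in all 15 alternatives each (of 16, the filter on genes above the limit having removed both). With 1 array left out at a time, the count of genes past the adjusted threshold ran from 0 to 2 (2 without diabetic replicate 2 and 1 without diabetic replicate 3), genes at an unadjusted p under 0.05 from 911 to 1391, and probe sets at that level from 1592 to 2407. The median over the 9 ran from -0.12 to 0.035. Differences ran from -0.22 to 0.13 for Grhl1, -0.12 to 0.035 for Grhl2, -0.12 to 0.062 for Grhl3, -0.017 to 0.24 for Ovol2, -0.18 to 0.063 for Tfap2a, -0.089 to 0.13 for Tfap2c and -0.12 to 0.068 for Gata3. Fewer genes tested lowered the count at an unadjusted p under 0.05 from 1109 to 563 without the dimmer 50% of genes and to 363 among genes above the limit on at least 3 arrays, and that of probe sets from 1971 to 986 without the dimmer 50%. Scaling left the sign of all 9 as it was.

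No pairing by the replicate numbers of the titles was seen. Deviations from the group means correlated at -0.02, 0.01 and 0.01 for the same-numbered pairs. On arrays this dim such small values do not exclude pairing. Not every array correlated best with its own number. With the replicate block 1147 genes had an unadjusted p under 0.05 and 0 passed adjustment.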

Other observations

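The identical values of Ovol1 on different arrays were looked for over the whole table. Between any pair of arrays, from 56 to 167 of 35556 probe sets had exactly equal deposited values. Diabetic replicates 2 and 3 shared 164 (0.461%) and normal replicates 1 and 2 shared 105 (0.295%). Pearson correlations between arrays across probe sets, which are not independent replicates, lay between 0.862 and 0.924.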
